A study of Homo sapiens with 36 samples.

Results

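The mitochondrial ribosomal protein genes (MRP genes) are the nuclear genes whose products build the ribosome of the mitochondrion. They were taken as every protein-coding gene of the deposited expression table with a name that starts with MRPL or MRPS and a number, which gave 78 of the 21797 listed genes, 49 named MRPL and 29 named MRPS. All 78 passed the filter on low values, a mean of at least 1 CPM (reads of a gene scaled by library size), and so were among the 18227 genes tested.

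Transcript levels came from UM-SCC-1, an established line of head and neck squamous cell carcinoma, infected with retrovirus and kept in 10 ug/mL blasticidin for 4 days. The ALKBH5 set held ALKBH5 shRNA-1 (2 libraries), ALKBH5 shRNA-2 (2 libraries) and its own scramble control (3 libraries). The RBM33 set held RBM33 shRNA-1 (2 libraries), RBM33 shRNA-2 (3 libraries) and its own scramble control (3 libraries). ALKBH5 is a demethylase of N6-methyladenosine (m6A), a common mark on mRNA. The study's title links RBM33, which binds RNA, to that demethylation. All groups share the virus and the drug selection, and the sample titles name shRNA where the design text names siRNA. Nothing in the labels says that replicates were separate cultures or that the shRNA lines were clones, so p-values measure the spread between these libraries, which may be technical.

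The mitochondrial ribosome translates the few mRNAs of mitochondrial DNA, all of which encode subunits of the respiratory chain and ATP synthase. Its large subunit is built from proteins named mainly MRPL around the 16S rRNA, and its small subunit from proteins named mainly MRPS around the 12S rRNA. Many have bacterial counterparts and others occur in mitochondria alone. Each protein is made in the cytosol and imported, so a full set of nuclear transcripts is needed for assembly. Some names depart from this scheme: MRPS18A and MRPS30 sit in the large subunit in mammals, and MRPS36 is known as a component of the 2-oxoglutarate dehydrogenase complex.

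Depth over listed genes ran between 4493849 and 6733017 reads per library, and the columns of the table summed to between 954041.7 and 1050514.7 CPM. ALKBH5 mRNA measured 84.7, 84.8, 75.1 and 89.6 CPM in ALKBH5 shRNA libraries, against 108.8, 131.7 and 123.3 CPM in ALKBH5 scramble libraries (log2 difference -0.53, SE 0.08, limma adjusted p 9.1e-05). RBM33 mRNA measured 191.4, 204.0, 207.7, 199.3 and 214.4 CPM where the label is RBM33 shRNA, against 217.1, 207.2 and 227.1 CPM in RBM33 scramble libraries. That difference, -0.10 on the log2 scale, was not called (limma adjusted p 0.272). It was called lower, at -0.20, where a trend with gene length was removed from each library, with the replicate block or without it (adjusted p 0.0466 and 0.0268), and in none of the other settings. Every direction below therefore refers to libraries labelled RBM33 shRNA. General epithelial markers were listed for 4 of 4 genes and squamous markers for 2 of 7, with keratin 8 (KRT8) between 56.5 and 96.7 CPM. Keratin 18 (KRT18) ran between 28.334 and 48.38 CPM. The other general epithelial markers were low, EPCAM at 0.427 to 2.552 CPM and CDH1 at 0.381 to 4.203 CPM. Of the listed squamous markers, PERP ran between 49.481 and 67.926 CPM, while DSG3 was low at 0.162 to 3.418 CPM. The summed level of 4 general epithelial markers was 126.5 to 140.0 CPM in ALKBH5 shRNA libraries, against 99.9 to 119.7 CPM in ALKBH5 scramble libraries, and KRT8 was called higher there (log2 difference 0.50, limma adjusted p 0.0034). Its part in the results below was not tested. Summed fibroblast markers ran between 24.2 and 38.8 CPM, with COL1A1 at 14.5 to 23.8 CPM and COL3A1 at 7.05 to 13.3 CPM. Summed leukocyte markers stayed between 1.5 and 6.2 CPM in every library.

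The MRP genes were expressed in every library. Mean levels ran between 9.39 CPM for MRPL53, a protein of the stalk base, and 193 CPM for MRPS34, a mitochondrion-specific small subunit protein, with a median of 48.3 CPM. Per kilobase of gene length, MRPS34 led with 177 CPM per kb, ahead of MRPS26 with 94.5 CPM per kb and MRPL12, the stalk protein related to bacterial L7/L12, with 75.4 CPM per kb. MRPL46, a central protuberance protein, was lowest with 4.37 CPM per kb. The order rests on the gene lengths of the deposited table. Of the 78 genes, 18 overlapped another listed gene on the same strand and 31 on the opposite strand, and 36 overlapped none.

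Summed over all 78 genes, the level was 4541 and 4561 CPM in ALKBH5 shRNA-1 libraries and 4786 and 4431 CPM in ALKBH5 shRNA-2 libraries, against 3697, 3861 and 3790 CPM in ALKBH5 scramble libraries. The libraries labelled RBM33 shRNA gave 4297 and 4479 CPM with shRNA-1 and 4485, 4057 and 4413 CPM with shRNA-2, against 4513, 4416 and 4577 CPM in RBM33 scramble libraries. Every ALKBH5 shRNA library thus lay above every ALKBH5 scramble library, the RBM33 groups overlapped, and the ALKBH5 scramble libraries were the lowest of all 15. As a share of all reads in listed genes, the MRP genes took 0.459% to 0.481% in ALKBH5 shRNA libraries, against 0.372% to 0.405% in ALKBH5 scramble libraries. The same share was 0.401% to 0.454% in libraries labelled RBM33 shRNA, against 0.420% to 0.436% in RBM33 scramble libraries. In bulk RNA, a change in the cells present and a change in RNA per cell cannot be told apart.

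**Figure D1:**
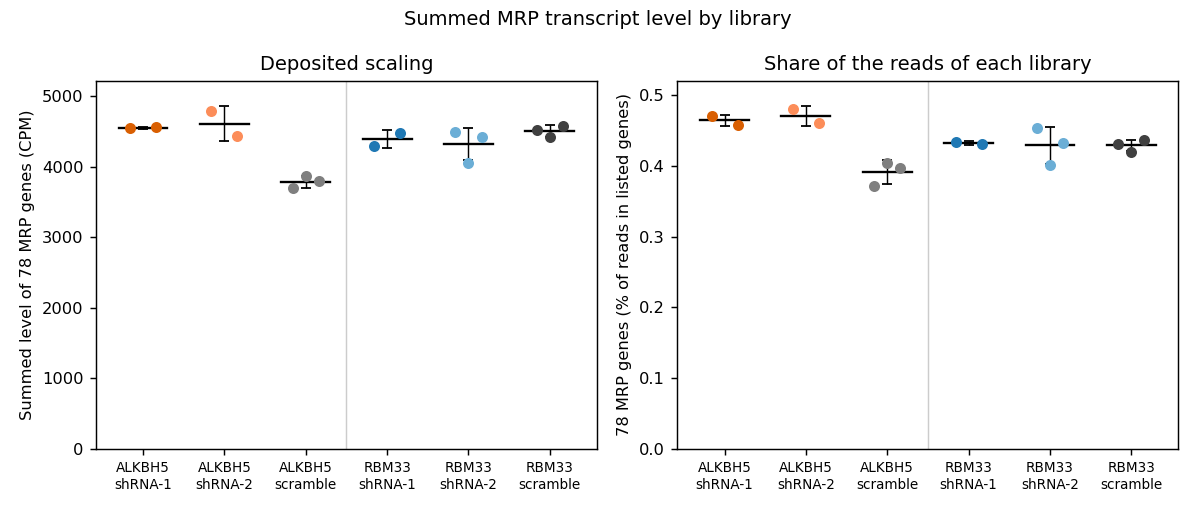
Summed level of the 78 MRP genes in each of 15 libraries, as deposited CPM (left panel) and as percent of the reads in listed genes (right panel); points are libraries, bars the mean and whiskers the SD of a group. ALKBH5 shRNA libraries sit between 4431 and 4786 CPM, above the ALKBH5 scramble libraries at 3697 to 3861 CPM, while the RBM33 groups overlap.

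With ALKBH5 shRNA, 26 of 78 MRP genes rose and 2 fell relative to ALKBH5 scramble (limma on log2(CPM + 1), adjusted p under 0.05 over all genes). Over all tested genes, 7.93% rose and 7.18% fell. The median log2 difference of the 78 genes was 0.29 and 72 of them had a positive value, where the median over all tested genes was 0.01. Without adjustment, 46 were higher and 3 lower at p under 0.05. For this and every unadjusted count below, the share of all tested genes was not determined. The libraries of the shRNA and scramble groups did not overlap for 38 genes, of which 35 were higher with ALKBH5 shRNA (44.9%, against 12.3% of all tested genes) and 3 lower (3.85%, against 11.9%).

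Both subunits took part. Among genes named MRPL, 18 of 49 rose and 1 fell (median log2 difference 0.30), and among those named MRPS, 8 of 29 rose and 1 fell (median 0.21). By origin, 17 of 47 genes with bacterial counterparts rose and 1 fell, and 9 of 30 mitochondrion-specific genes rose and 1 fell, MRPS36 being counted in neither class. Around the polypeptide exit, where nascent chains leave toward the inner membrane, 4 of 7 genes rose: MRPL23, MRPL39, MRPL24 and MRPL17. In the central protuberance, 3 of 6 rose: MRPL46, MRPL40 and MRPL52. In the L7/L12 stalk and its base, MRPL12 was the 1 gene of 5 that rose.

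**Figure D2:**
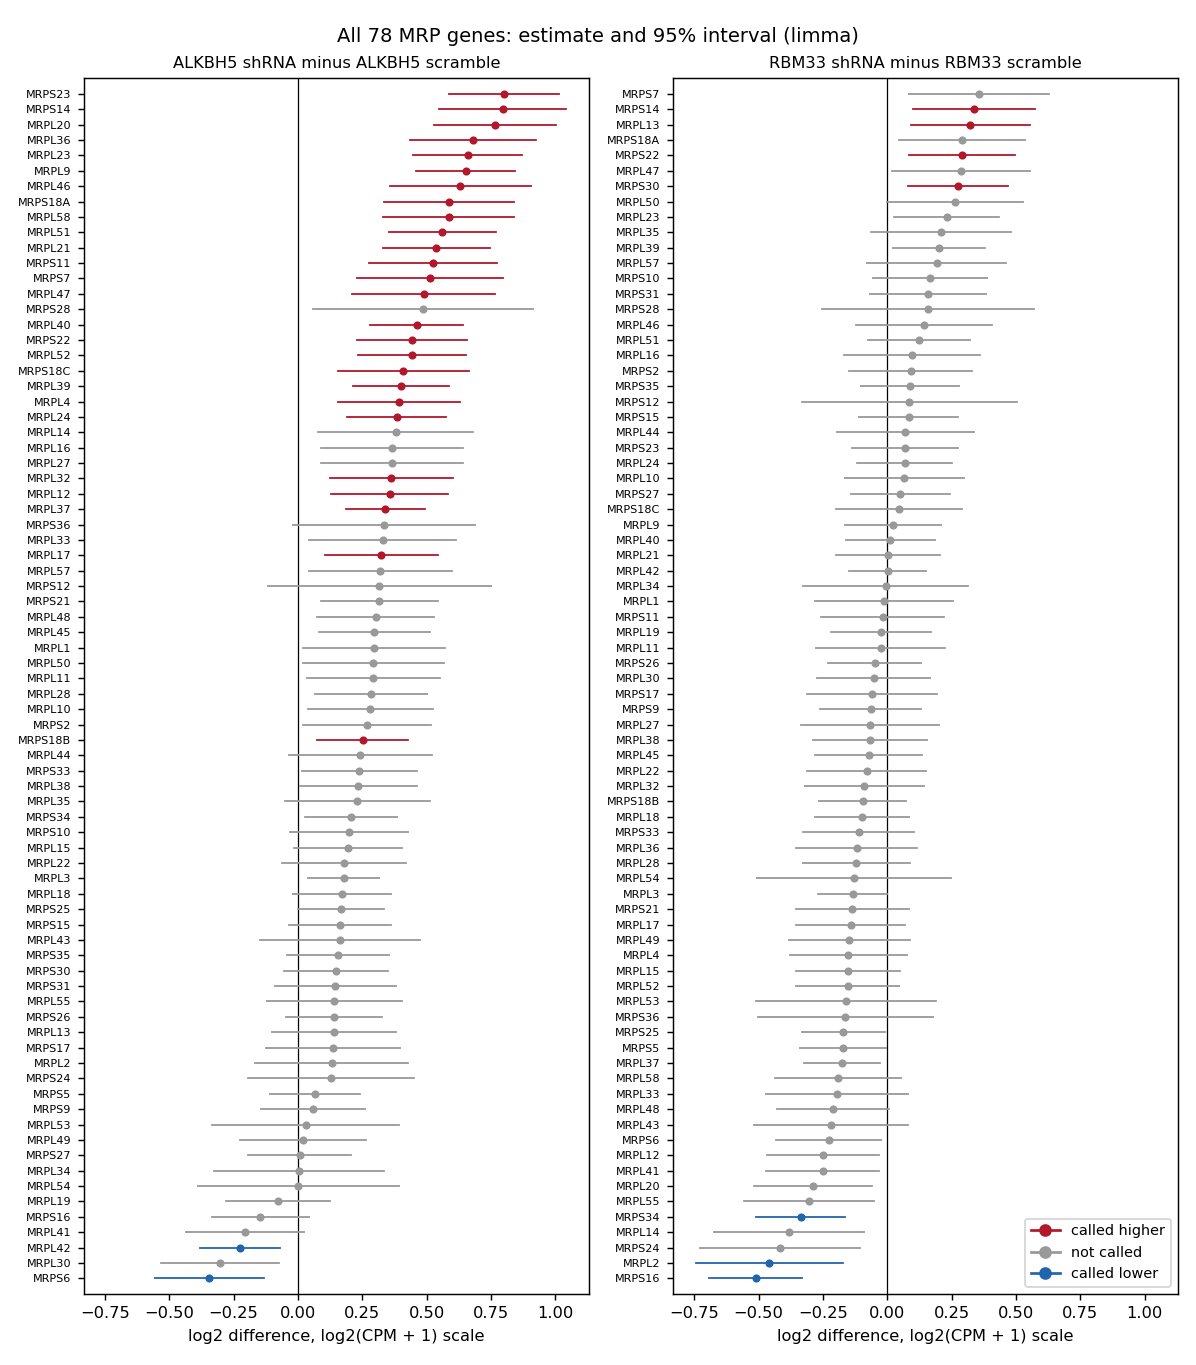
Log2 difference on the log2(CPM + 1) scale with its 95% interval for each of the 78 MRP genes, ordered by size, for ALKBH5 shRNA minus ALKBH5 scramble (left) and RBM33 shRNA minus RBM33 scramble (right). Red and blue mark genes called higher or lower (26 and 2 on the left, 4 and 3 on the right), and grey marks genes that were not called.

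MRPS23, a mitochondrion-specific small subunit protein (chr17:57834781-57850056, minus strand, hg38), had the largest rise. It measured 121.6 and 133.8 CPM with ALKBH5 shRNA-1 and 145.6 and 116.2 CPM with ALKBH5 shRNA-2, against 72.6, 81.4 and 67.3 CPM in ALKBH5 scramble libraries (log2 difference 0.80, SE 0.10, limma adjusted p 1.2e-05). The lowest shRNA library thus exceeded the highest scramble library by a wide margin. No listed gene overlaps MRPS23.

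MRPS14, the counterpart of bacterial S14 in the head of the small subunit (chr1:175010789-175023425, minus strand), measured 48.3, 40.7, 44.9 and 60.1 CPM in ALKBH5 shRNA libraries, against 29.98, 25.5 and 26.4 CPM in ALKBH5 scramble libraries (log2 difference 0.80, SE 0.12, limma adjusted p 7.6e-05). The groups did not overlap. MRPS14 runs over CACYBP on the opposite strand.

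MRPL20, the counterpart of bacterial L20, an early rRNA-binding protein of the large subunit (chr1:1401909-1407293, minus strand), measured 62.5, 63.8, 74.7 and 57.4 CPM in ALKBH5 shRNA libraries, against 38.4, 34.3 and 39.96 CPM in ALKBH5 scramble libraries (log2 difference 0.76, SE 0.11, limma adjusted p 7.7e-05). The groups did not overlap here either. MRPL20-AS1, an antisense gene listed on the opposite strand, measured between 7.68 and 15.8 CPM over all libraries, well under MRPL20.

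MRPL36, a very small large subunit protein related to bacterial L36 (chr5:1798385-1801366, minus strand), measured 27.7, 26.1, 33.2 and 29.7 CPM in ALKBH5 shRNA libraries, against 17.8, 18.9 and 16.6 CPM in ALKBH5 scramble libraries (log2 difference 0.68, SE 0.12). MRPL23, at the polypeptide exit (chr11:1947278-1984522, plus strand), measured 78.6, 73.8, 64.8 and 69.2 CPM, against 41.3, 54.7 and 39.96 CPM (log2 difference 0.66, SE 0.10). MRPL9, the counterpart of bacterial L9 (chr1:151759647-151763496, minus strand), measured 87.6, 79.1, 106.6 and 98.3 CPM, against 57.2, 61.8 and 56.4 CPM (log2 difference 0.65, SE 0.09). In all 3 genes each ALKBH5 shRNA library was above each ALKBH5 scramble library. MRPL36 and MRPL23 overlap no listed gene, while MRPL9 overlaps AL589765.4 on its own strand and OAZ3 on the opposite strand. MRPL20, described before, overlaps RN7SL657P on its own strand.

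The other 20 genes that rose had log2 differences between 0.25 (MRPS18B) and 0.63 (MRPL46). They include MRPL58, a peptidyl-tRNA hydrolase that is built into the large subunit and releases stalled chains, with a log2 difference of 0.58. MRPS18A, placed in the large subunit in mammals, had 0.59, and MRPL12 had 0.36.

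MRPS6, related to bacterial S6 (chr21:34073224-34143034, plus strand), was 1 of the 2 genes that fell. It measured 27.5, 29.7, 40.3 and 36.2 CPM in ALKBH5 shRNA libraries, against 42.7, 41.2 and 43.0 CPM in ALKBH5 scramble libraries (log2 difference -0.34, SE 0.10, limma adjusted p 0.025). Its groups did not overlap, and it shares its span and strand with SLC5A3, so reads of the pair may be hard to separate. MRPL42 (chr12:93467514-93516214, plus strand) measured 101.8, 107.4, 98.0 and 95.0 CPM, against 114.5, 109.6 and 129.7 CPM (log2 difference -0.23, SE 0.08, limma adjusted p 0.044). MRPS6 missed the threshold without any 1 of ALKBH5 shRNA-1 replicate 1, ALKBH5 shRNA-2 replicate 3 or ALKBH5 scramble replicates 1, 2 or 3 (adjusted p up to 0.079), and MRPL42 missed it in 9 of 15 fits that left out 1 library (adjusted p up to 0.244). The count of lower genes was 0 without ALKBH5 shRNA-1 replicate 1, ALKBH5 shRNA-2 replicate 3 or ALKBH5 scramble replicate 1 or 3, and 1 without ALKBH5 shRNA-1 replicate 2, ALKBH5 shRNA-2 replicate 1, ALKBH5 scramble replicate 2 or any 1 of the 3 RBM33 scramble replicates.

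**Figure D3:**
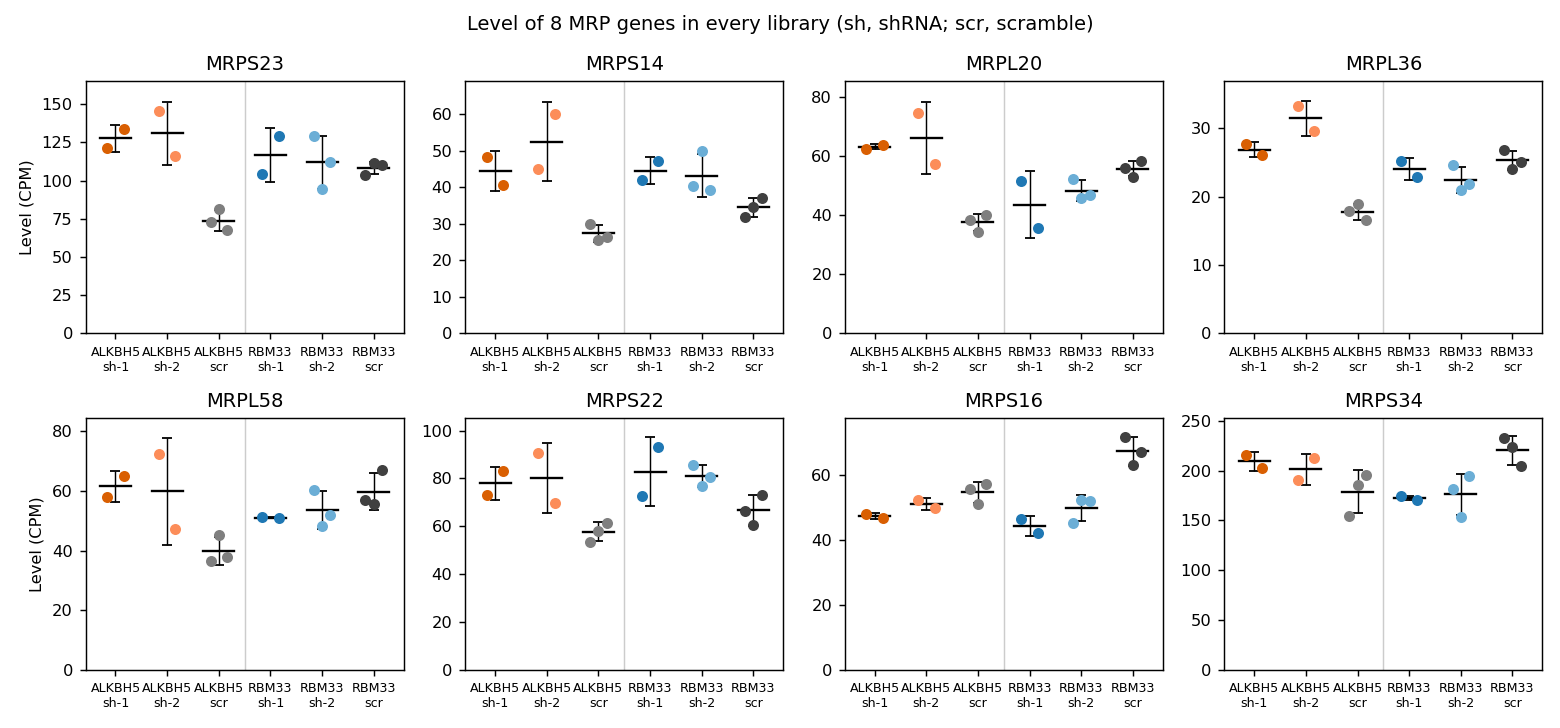
Level of 8 MRP genes in CPM in each library of the 6 groups (sh, shRNA; scr, scramble); points are libraries, bars group means and whiskers SDs, and each axis starts at 0. MRPS23 lies at 116.2 to 145.6 CPM in ALKBH5 shRNA libraries and at 67.3 to 81.4 CPM in ALKBH5 scramble libraries, while MRPS16 and MRPS34 have their highest group mean in RBM33 scramble.

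Each ALKBH5 shRNA was also set against the scramble group on its own. ALKBH5 shRNA-1 gave 19 MRP genes higher and 1 lower (5.05% and 3.48% of all tested genes, 8.53% in all, limma), with a median log2 difference of 0.23. ALKBH5 shRNA-2 gave 24 higher and 1 lower (5.06% and 5.0%, 10.1% in all), with a median of 0.31. Both comparisons use the same scramble libraries. The counts rest on few libraries: with ALKBH5 shRNA-1 replicate 1 left out, 5 MRP genes were called for that shRNA, and 12 without replicate 2, while 7 were called for ALKBH5 shRNA-2 without its replicate 1 and 14 without ALKBH5 scramble replicate 1. Where an shRNA is left with 1 library, that library is assumed to vary like the other groups. Between the shRNAs, ALKBH5 shRNA-1 minus ALKBH5 shRNA-2 called 0 MRP genes in limma (0.0% of all tested genes), with 4 at an unadjusted p under 0.05. In the authors' deposited table for ALKBH5 shRNA-1, 19 MRP genes were higher and 1 lower at FDR under 0.05 (4.34% and 2.99% of listed genes), and in the authors' deposited table for ALKBH5 shRNA-2, 22 were higher and 0 lower (3.97% and 3.63%). MRPS23 had log2 fold changes of 0.79 and 0.82 in the authors' deposited tables for shRNA-1 and shRNA-2.

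Promoter sequences are shown for 4 genes that rose with ALKBH5 shRNA, for MRPL58, called in the interaction, and for MRPS34, which was lower in libraries labelled RBM33 shRNA and was not called with ALKBH5 shRNA. RefSeq (GRCh38.p14) gave a window of 250 bases before to 50 bases after the most upstream start for 69 of 78 MRP genes. These windows were searched on both strands for CCGGAAG, letters bound by the ETS family (GABP among them), for the motifs of YY1 and NRF1, and for TATAAA, the TATA box. The NRF1 and YY1 letters are the first and the second run of capitals as MRPL36 is printed here, the middle 2 letters of the NRF1 motif being free. CCGGAAG ends in the AAG with which the YY1 motif begins, so a joined match counts for both. CCGGAAG was found in 29 of the 69 windows (42.0%), against 18.6% of 10792 windows of tested protein-coding genes and 10.6% of all 27305 windows. The YY1 motif was found in 13 (18.8%), against 2.69% and 1.25%. The NRF1 motif was found in 9 (13%), against 15.7% and 8.73%, and TATAAA in 2 (2.9%), against 5.86% and 12%. At least 1 of the first 3 was in 44 windows, and 25 held none of them. The 200 bases before the start are printed 5′ to 3′ on the strand of the gene, with each match in capitals, also where the letters lie on the other strand.
MRPL20: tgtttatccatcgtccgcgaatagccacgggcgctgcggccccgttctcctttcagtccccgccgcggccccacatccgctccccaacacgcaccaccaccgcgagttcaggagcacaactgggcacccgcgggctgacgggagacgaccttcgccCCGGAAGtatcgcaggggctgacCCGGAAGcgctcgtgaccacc
MRPL36: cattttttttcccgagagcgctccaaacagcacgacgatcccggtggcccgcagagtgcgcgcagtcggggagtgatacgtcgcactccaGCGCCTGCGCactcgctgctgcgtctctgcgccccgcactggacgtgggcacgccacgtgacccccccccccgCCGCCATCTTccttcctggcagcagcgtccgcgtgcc
MRPL58: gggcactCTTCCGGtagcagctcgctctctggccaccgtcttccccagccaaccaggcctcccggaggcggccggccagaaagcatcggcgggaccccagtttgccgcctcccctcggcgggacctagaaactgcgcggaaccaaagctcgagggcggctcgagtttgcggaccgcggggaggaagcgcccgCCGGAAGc
MRPS23: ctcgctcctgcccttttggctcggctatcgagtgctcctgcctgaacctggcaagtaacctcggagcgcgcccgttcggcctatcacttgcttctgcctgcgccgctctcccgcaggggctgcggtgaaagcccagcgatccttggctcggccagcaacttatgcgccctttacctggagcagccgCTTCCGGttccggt
MRPS34: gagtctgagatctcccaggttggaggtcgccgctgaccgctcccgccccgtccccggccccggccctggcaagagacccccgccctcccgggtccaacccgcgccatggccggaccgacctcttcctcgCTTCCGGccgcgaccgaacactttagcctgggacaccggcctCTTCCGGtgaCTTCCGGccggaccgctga
MRPS14: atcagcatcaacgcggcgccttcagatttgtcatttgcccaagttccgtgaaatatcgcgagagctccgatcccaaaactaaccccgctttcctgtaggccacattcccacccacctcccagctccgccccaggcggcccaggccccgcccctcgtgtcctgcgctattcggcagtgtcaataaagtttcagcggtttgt
MRPL20 (chr1:1407294-1407493, minus strand) held CCGGAAG at 44 and 21 bases before the start. MRPL36 (chr5:1799838-1800037, minus strand) held the NRF1 letters at 110 and the YY1 letters at 37 bases. MRPL58 (chr17:75012470-75012669, plus strand) held CCGGAAG at 193 and 8 bases, MRPS23 (chr17:57850045-57850244, minus strand) at 14 bases, and MRPS34 (chr16:1773135-1773334, minus strand) at 71, 29 and 19 bases. MRPS14 (chr1:175023426-175023625, minus strand) held none of the motifs in its window, and nor did MRPL9 or MRPS6. MRPL42, MRPS16 and MRPS30 held none in the 200 bases before the start and 1 in the whole window. A match is a description of letters, not of a bound site. MRP genes with CCGGAAG had a median log2 difference of 0.32 for ALKBH5 shRNA minus scramble (n = 29), and those without it 0.26 (n = 40). For the YY1 motif the medians were 0.25 with it (n = 13) and 0.29 without it (n = 56). For the NRF1 motif they were 0.32 (n = 9) and 0.28 (n = 60), and for TATAAA 0.08 (n = 2) and 0.29 (n = 67). These medians are given as a description and were not tested.

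Other genes of mitochondrial gene expression were described beside the MRP genes. Over all tested genes, 7.93% rose and 7.18% fell with ALKBH5 shRNA, 15.1% in all (limma). The lists are short, and their counts were not tested against those shares. Translation factors and mitochondrial aminoacyl-tRNA synthetases were called about as often as genes at large. Of 5 mitoribosomal proteins under other names, CHCHD1 (log2 difference 0.40) and GADD45GIP1 (0.47) rose with ALKBH5 shRNA. Of 23 tested assembly factors, 6 rose and 1 fell, with the helicase DDX28 at 0.93, MALSU1, which binds the maturing large subunit, at 0.65, and the GTPase NOA1 at -0.36. Of 17 translation factors, 2 rose and 1 fell: OXA1L, the insertase that receives nascent chains, had 0.67, the elongation factor TSFM 0.60 and the initiation factor MTIF3 -0.38. Of 16 genes of mitochondrial transcription and RNA, 3 rose and 1 fell, with SLIRP at 1.10, TFB2M at 0.62, HSD17B10 at 0.61 and LRPPRC, the partner of SLIRP in binding mitochondrial mRNA, at -0.37. Of 17 mitochondrial aminoacyl-tRNA synthetases, EARS2, CARS2 and VARS2 rose. Of the 13 mRNAs that the mitochondrial ribosome translates, 8 fell and none rose, with a median log2 difference of -0.35 and MT-ATP8 at -0.74. Their summed level was 14744, 16043, 13517 and 13996 CPM in ALKBH5 shRNA libraries, against 22010, 16847 and 16462 CPM in ALKBH5 scramble libraries. All scramble libraries were above all shRNA libraries, and ALKBH5 scramble replicate 1 stood well above the other scramble libraries. Without that replicate 5 fell and none rose (limma), with a median of -0.18.

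Cytosolic ribosomal protein genes and nuclear genes of the respiratory chain were the lists most like the MRP genes. With ALKBH5 shRNA, 37 of 73 cytosolic ribosomal protein genes rose and 0 fell (median log2 difference 0.23), and 27 of 82 tested respiratory chain genes rose and 1 fell (median 0.26). MRP genes were short, with a median length of 2544 bases where tested genes had 4474 bases. Up to 2389 bases, 37 MRP genes had a median log2 difference of 0.30 and all 4560 genes 0.07. Between 2389 and 4474 bases 27 MRP genes had 0.29 and all 4555 genes 0.03. Between 4474 and 7227.5 bases 11 MRP genes had 0.24 and all 4555 genes -0.02. Among longer genes the 3 MRP genes had -0.08 and all 4557 genes -0.04. Of the 78 genes, 23 were called higher after a trend with gene length was removed from each library.

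In libraries labelled RBM33 shRNA, 4 of 78 MRP genes were higher and 3 lower than in RBM33 scramble (limma, adjusted p under 0.05), where 8.5% of all tested genes were higher and 9.25% lower. The median log2 difference was -0.06, with 32 genes positive. Without adjustment, 10 were higher and 14 lower, with no share of all tested genes to set beside them. Groups did not overlap for 6 genes that were higher (7.69%, against 10.8% of all tested genes) and 11 that were lower (14.1%, against 11.6%), so these shares are near those of genes at large. With each library rescaled to the same total over the listed genes, the split was 6 higher and 2 lower.

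MRPS16, the counterpart of bacterial S16 (chr10:73248843-73252693, minus strand), fell most. It measured 46.5 and 42.0 CPM with RBM33 shRNA-1 and 45.3, 52.3 and 52.0 CPM with RBM33 shRNA-2, against 71.8, 63.1 and 67.1 CPM in RBM33 scramble libraries (log2 difference -0.51, SE 0.09, limma adjusted p 2.1e-04). The groups were far apart, and the call held in all 15 fits that left out 1 library (adjusted p up to 0.00402). MRPS34 (chr16:1771890-1773150, minus strand) measured 174, 171, 181, 154 and 194 CPM, against 233, 224 and 204 CPM (log2 difference -0.34, SE 0.08, limma adjusted p 0.0068). Here too the highest library labelled RBM33 shRNA was under the lowest scramble library, though the call was lost without RBM33 scramble replicate 1 (adjusted p 0.053). MRPL2, which lies near the peptidyl transferase centre (chr6:43054029-43059438, minus strand), measured 19.6, 21.2, 16.9, 15.4 and 16.2 CPM, against 28.4, 23.3 and 24.5 CPM (log2 difference -0.46, SE 0.14, limma adjusted p 0.024). Its groups did not overlap, and the call was lost without RBM33 shRNA-1 replicate 1 or RBM33 scramble replicate 1 or 3 (adjusted p up to 0.134).

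The 4 higher genes were near the threshold. MRPS14 measured 41.9, 47.2, 40.2, 49.99 and 39.3 CPM in libraries labelled RBM33 shRNA, against 31.8, 34.4 and 37.1 CPM in RBM33 scramble libraries (log2 difference 0.34, SE 0.11, limma adjusted p 0.045). MRPS22, a mitochondrion-specific small subunit protein (chr3:139005806-139357223, plus strand), measured 72.6, 93.0, 85.7, 76.7 and 80.5 CPM, against 66.4, 60.5 and 73.3 CPM (log2 difference 0.29, SE 0.10, limma adjusted p 0.047). MRPS14 did not overlap between groups, and MRPS22 did by 1 library. MRPS30, placed in the large subunit in mammals (chr5:44808947-44820428, plus strand), measured 63.9, 63.6, 71.7, 63.2 and 60.6 CPM, against 56.3, 52.7 and 50.3 CPM (log2 difference 0.28, SE 0.09, limma adjusted p 0.045). MRPL13, the counterpart of bacterial L13, measured 42.7, 43.6, 37.4, 38.5 and 43.4 CPM, against 28.0, 37.0 and 34.2 CPM (log2 difference 0.32, SE 0.11, limma adjusted p 0.049). In both genes every library labelled RBM33 shRNA was above every scramble library. Leaving out 1 library lowered the count of higher genes to 0 (without RBM33 shRNA-1 replicate 2, or without RBM33 scramble replicate 1), to 1 (without ALKBH5 scramble replicate 3, RBM33 shRNA-1 replicate 1 or RBM33 scramble replicate 2) or to 2 (without ALKBH5 scramble replicate 2, RBM33 shRNA-2 replicate 1 or 3, or RBM33 scramble replicate 3), and the count of lower genes was 1 without RBM33 scramble replicate 1 and 5 without RBM33 shRNA-1 replicate 2 or RBM33 shRNA-2 replicate 1.

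Set apart by construct, RBM33 shRNA-1 had 0 MRP genes higher and 2 lower in limma (5.62% and 5.27% of all tested genes), with 9 and 8 at an unadjusted p under 0.05. RBM33 shRNA-2 had 0 higher and 5 lower (6.44% and 7.27%), with 7 and 8 at an unadjusted p under 0.05. The authors' deposited table for RBM33 shRNA-1 had 0 higher and 2 lower (4.98% and 4.99% of listed genes), and the authors' deposited table for RBM33 shRNA-2 had 0 higher and 4 lower (5.38% and 6.24%). MRPS16 had log2 fold changes of -0.60 and -0.43 in the authors' deposited tables for RBM33 shRNA-1 and shRNA-2. RBM33 shRNA-1 minus RBM33 shRNA-2 called 0 MRP genes in limma (0.0% of all tested genes), with 4 at an unadjusted p under 0.05. Among other genes of mitochondrial translation, TUFM, the elongation factor Tu, fell by 0.52 on the log2 scale. DAP3, a small subunit GTP-binding protein, fell by 0.45. GFM1, elongation factor G1, rose by 0.36 and the alanyl-tRNA synthetase AARS2 by 0.56. These genes come from longer lists whose counts are not given here for the RBM33 set. Of all tested genes, 17.7% were called in that set. Cytosolic ribosomal protein genes were lower in 24 of 73 cases and higher in 1, where 9.25% and 8.5% of all tested genes were so called. For RBM33 shRNA-1 the count of MRP genes called was 1 without RBM33 shRNA-1 replicate 2 or RBM33 scramble replicate 1 or 2, and for RBM33 shRNA-2 it was 2 without RBM33 shRNA-2 replicate 2 or RBM33 scramble replicate 1 or 2, and 3 without RBM33 shRNA-2 replicate 3. Without a replicate of RBM33 shRNA-1 that arm has 1 library, assumed to vary like the other groups.

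The ALKBH5 effect exceeded the RBM33 effect for 12 MRP genes and was below it for 0 (limma interaction, adjusted p under 0.05), where 2.01% and 0.686% of all tested genes did so. At an unadjusted p under 0.05 there were 39 and 1, and edgeR and DESeq2 also gave 0 lower. The median difference of the effects was 0.32 on the log2 scale, with 70 of 78 genes positive. MRPL20 had the largest difference of effects (1.053, SE 0.16, limma adjusted p 4.8e-04). It measured 51.5, 35.5, 52.3, 45.7 and 46.9 CPM in libraries labelled RBM33 shRNA, against 55.9, 53.0 and 58.3 CPM in RBM33 scramble libraries, opposite in sign to its rise in the ALKBH5 set. The next in size were MRPL36 (0.80), MRPL58 (0.77), MRPL14, which contacts the assembly factor MALSU1 (0.76), MRPS23 (0.73) and MRPL9 (0.63).

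MRPL36 measured 25.2, 22.9, 24.6, 20.9 and 21.9 CPM in libraries labelled RBM33 shRNA, against 26.8, 24.1 and 25.04 CPM in RBM33 scramble libraries. MRPL58 (chr17:75012670-75021261, plus strand) measured 57.9, 65.1, 72.4 and 47.2 CPM in ALKBH5 shRNA libraries, against 36.3, 45.2 and 37.9 CPM in ALKBH5 scramble libraries. In the RBM33 set MRPL58 measured 51.1, 50.8, 60.5, 48.1 and 52.0 CPM with shRNA, against 56.9, 55.5 and 66.9 CPM with scramble. For both genes the ALKBH5 groups were apart and the RBM33 groups overlapped. MRPL14 (chr6:44113451-44127452, minus strand) measured 27.7, 22.4, 27.5 and 27.2 CPM with ALKBH5 shRNA, against 19.9, 19.7 and 19.98 CPM with ALKBH5 scramble. In the RBM33 set MRPL14 measured 20.6, 25.4, 21.1, 21.8 and 26.4 CPM with shRNA, against 39.6, 28.5 and 24.4 CPM with scramble, so its ALKBH5 groups were apart and 1 RBM33 scramble library lay within the shRNA range. MRPS23 measured 104.1, 129.5, 129.0, 94.6 and 112.2 CPM, against 103.6, 111.3 and 110.0 CPM, and MRPL9 measured 78.5, 87.5, 87.9, 75.2 and 74.6 CPM, against 89.9, 69.5 and 80.9 CPM, in the same libraries. Both overlapped between RBM33 groups.

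The count of 12 fell to 7 without ALKBH5 scramble replicate 1, RBM33 shRNA-1 replicate 1 or RBM33 scramble replicate 2, and to 6 without RBM33 scramble replicate 1 or after a gene length trend was removed. MRPL14 lost its call in 11 of 15 fits that left out 1 library (adjusted p up to 0.168).

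The interaction also carries the difference between the scramble groups. ALKBH5 scramble was below RBM33 scramble for 10 MRP genes and above it for 0 (limma), where 2.21% of all tested genes were lower, 0.269% higher and so 2.48% called. At an unadjusted p under 0.05 there were 40 and 0, edgeR and DESeq2 gave 0 higher as well, and the median log2 difference was -0.26, with 69 of 78 genes negative. The libraries did not overlap for 37 genes that were lower (47.4%, against 11.9% of all tested genes) and 1 that was higher (1.28%, against 9.04%). The share that was lower without overlap was 93.2% of 73 cytosolic ribosomal protein genes and 72% of 82 respiratory chain genes. MRPL14, MRPL58, MRPL20, MRPL12, MRPS23, MRPL36, MRPL40, MRPL15, MRPL9 and MRPL37 were the 10 lower genes, with log2 differences between -0.58 and -0.40. MRPL12 measured 56.0, 62.4 and 63.7 CPM in ALKBH5 scramble libraries, against 94.1, 84.1 and 90.5 CPM in RBM33 scramble libraries, with no overlap.

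With each library rescaled to the same total over the listed genes, the median of all tested genes in this comparison moved to 0.11 and 3 MRP genes were lower. The count was 4 without ALKBH5 scramble replicate 1 or RBM33 scramble replicate 1, and 5 without ALKBH5 scramble replicate 3 or RBM33 scramble replicate 3. Both scramble groups received a control construct, and a difference between the sets as prepared and one between the constructs cannot be told apart.

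ALKBH5 shRNA and RBM33 shRNA libraries were close. MRPL20 was higher with ALKBH5 shRNA (log2 difference 0.49, SE 0.10, limma adjusted p 0.038) and 0 genes were lower, where 0.0878% and 0.214% of all tested genes were called. The MRPL20 call was lost without any 1 of ALKBH5 shRNA-1 replicate 1 or 2, ALKBH5 shRNA-2 replicate 1, RBM33 shRNA-1 replicate 2, RBM33 shRNA-2 replicate 2 or 3, or RBM33 scramble replicate 1 or 2. At an unadjusted p under 0.05, 11 MRP genes were higher and 2 lower, and edgeR and DESeq2 also gave 0 lower. The median log2 difference was 0.08. Groups did not overlap for 3 higher genes (3.85%, against 1.6%) and 1 lower gene (1.28%, against 2.25%).

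**Figure D4:**
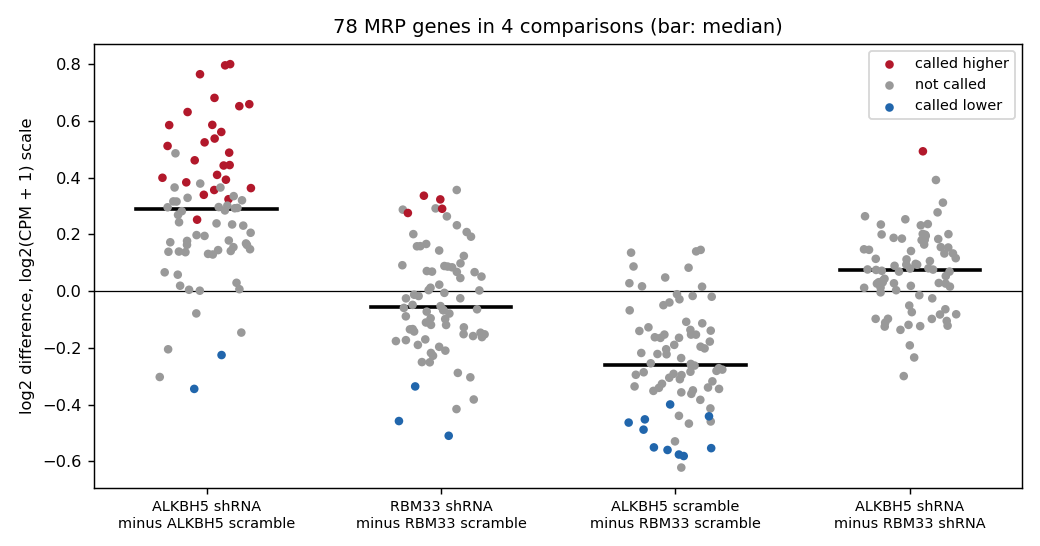
Log2 difference on the log2(CPM + 1) scale of the 78 MRP genes in 4 comparisons; each point is a gene, the bar is the median and colour marks calls. The median is 0.29 for ALKBH5 shRNA minus ALKBH5 scramble, -0.06 for RBM33 shRNA minus RBM33 scramble, -0.26 for ALKBH5 scramble minus RBM33 scramble and 0.08 for ALKBH5 shRNA minus RBM33 shRNA.

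The m6A tables list peaks, short stretches of RNA enriched by an antibody against m6A, that differ between an shRNA group and its scramble group. A peak carries the authors' effect on a natural log scale (0.5 or more in size) and a p-value, with no value per library, so their replicate spread is not known here. Positive effects were taken as higher in the shRNA group. The m6A levels headed treated were likewise taken as those of the shRNA group. Read so, the signs were the same for 164 of 164, 20 of 20, 1 of 1 and 1 of 1 peaks that also have a level in both groups. As both readings are assumed, this match cannot settle the direction. The ALKBH5 tables share a scramble group, as do the RBM33 tables, so their values are set side by side only. All 169 peaks of MRP genes lay inside the deposited gene spans, and the part of the transcript was not analysed here.

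In the ALKBH5 shRNA-1 table, 45 of 78 MRP genes had a peak (57.7%, against 32.6% of 18171 gene names), with 38 peaks higher and 29 lower. In the ALKBH5 shRNA-2 table, 43 had a peak (55.1%, against 38.2%), with 62 peaks higher and 17 lower. Higher peaks thus made up 56.7% of MRP peaks with shRNA-1, against 65% of all peaks of tested genes, and 78.5% with shRNA-2, against 72.8%. The RBM33 shRNA-1 table had 7 MRP genes (8.97%, against 7.94%) with 9 peaks, all higher, and the RBM33 shRNA-2 table had 12 (15.4%, against 11.5%) with 10 peaks higher and 4 lower. The shares were not compared at matched transcript levels. In all, 57 MRP genes had a peak in some table and 21 had none. At least 1 ALKBH5 table listed 55 genes, at least 1 RBM33 table listed 15, and 13 genes were in both kinds.

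**Figure D5:**
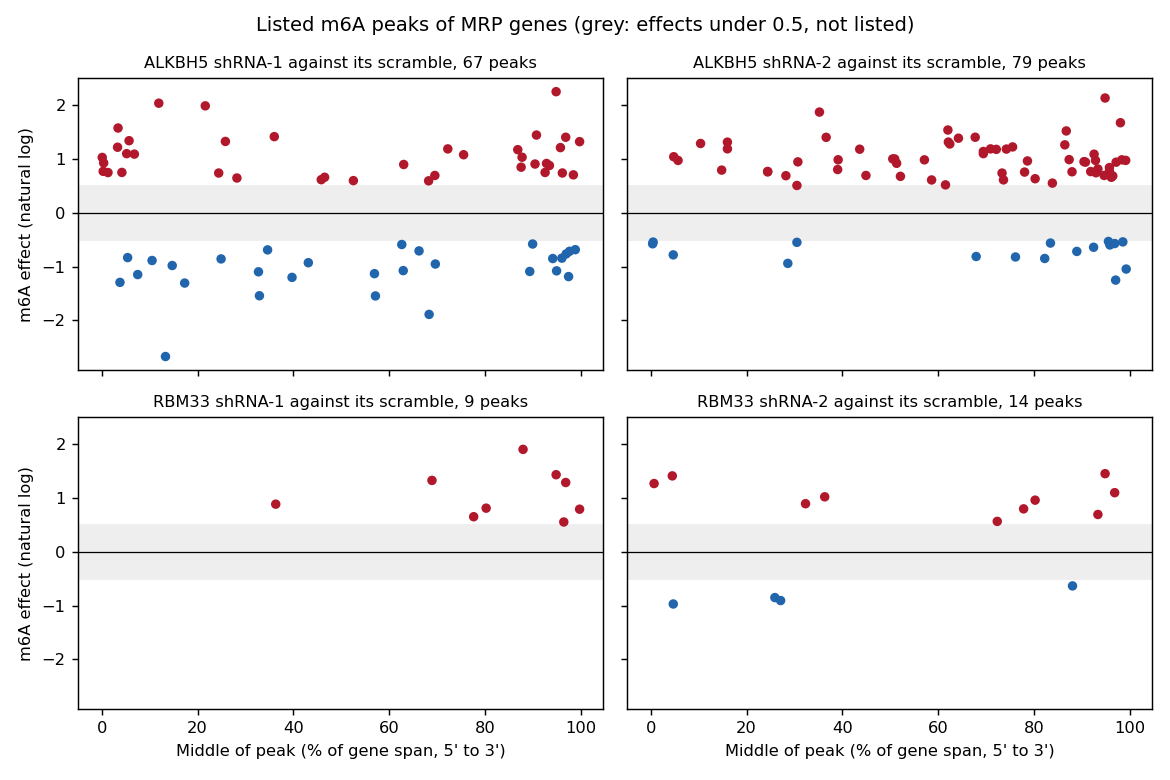
Effect of each listed m6A peak of the MRP genes (natural log, shRNA against scramble) by the position of its middle in percent of the gene span, 5′ to 3′, for the 4 deposited tables. Red peaks are higher and blue peaks lower in the shRNA group, the grey band marks effects under 0.5 that are not listed. For ALKBH5 shRNA-2, 46 of 79 peaks lie in the last of 3 equal parts of the span.

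MRPL4, the counterpart of bacterial L4 (chr19:10251901-10260055, plus strand), carried the largest positive effects in the ALKBH5 tables. Its 50-base peak at chr19:10259607-10259656 had effects of 2.25 with ALKBH5 shRNA-1, 2.13 with ALKBH5 shRNA-2, 1.43 with RBM33 shRNA-1 and 1.45 with RBM33 shRNA-2 (authors' p 0.00308, 0.00512, 4.03e-04 and 1.68e-04). This peak ends 399 bases before the 3′ end of the span. In the RBM33 shRNA-1 table MRPL18 had a larger effect, 1.90, at chr6:159797370-159797419. MRPL37, a mitochondrion-specific large subunit protein, had 5 peaks in the ALKBH5 shRNA-2 table. Its peak at chr1:54216324-54218200 had effects of 0.63 with ALKBH5 shRNA-2, 0.81 with RBM33 shRNA-1 and 0.96 with RBM33 shRNA-2. MRPL51 had an effect of 1.181 at chr12:6492871-6493105 with ALKBH5 shRNA-2 and, at the adjoining chr12:6493106-6493155, effects of 0.89 and 1.02 with RBM33 shRNA-1 and shRNA-2. MRPS5, related to bacterial S5, had effects of 1.40 at chr2:95087368-95087417 with ALKBH5 shRNA-1 and of 1.29 and 1.10 at chr2:95087418-95087467 with RBM33 shRNA-1 and shRNA-2.

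Counted by shared bases, 3 of the 79 peaks of ALKBH5 shRNA-2 and 3 of the 14 of RBM33 shRNA-2 overlapped (at least 1 base), all with the same sign: those of MRPL4, MRPL37 and MRPL55. MRPL55 was lower at chr1:228109163-228109212 in both (-0.78 and -0.97). For ALKBH5 shRNA-1 and RBM33 shRNA-2 the overlap was 2 of 67 and 2 of 14 peaks, in MRPL4 and MRPL55. RBM33 shRNA-1 shared 2 of its 9 peaks with 2 of 67 of ALKBH5 shRNA-1, in MRPL4 and MRPS28. It shared 2 of 9 with 2 of 79 of ALKBH5 shRNA-2, in MRPL4 and MRPL37. Between the ALKBH5 shRNAs, 18 of 67 peaks of shRNA-1 and 18 of 79 of shRNA-2 overlapped. Of these pairs 17 had the same sign and 1 did not, in MRPL2 (-0.59 with shRNA-1 and 1.31 with shRNA-2). RBM33 shRNA-1 and shRNA-2 shared 4 of 9 and 4 of 14 peaks, with the same signs.

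A second kind of table gives the m6A level of a peak as a percentage in each group, 1 value per group. For ALKBH5 shRNA-1 it held 15 peaks in 13 MRP genes, 7 higher and 8 lower (genes with a peak were 3.19% of gene names), of 721 peaks in all, 488 higher and 233 lower. The ALKBH5 shRNA-2 table held 2 (0.748%), RBM33 shRNA-1 held 1 (0.0991%) and RBM33 shRNA-2 held 0 (0.0825%). MRPL18, a central protuberance protein whose bacterial counterpart binds 5S rRNA, fell to 10.4% with ALKBH5 shRNA-1, against 57.8% in scramble, at chr6:159790610-159790959 (authors' adjusted p 1.64e-05). The same stretch stood at 14.7% with ALKBH5 shRNA-2, against 57.8% (0.0173). At other places in MRPL18 the effect tables list only higher peaks, with effects of 0.79, 0.99 and 1.09 with ALKBH5 shRNA-2 and of 1.90 and 0.55 with RBM33 shRNA-1. MRPS34 stood at 81.8% with ALKBH5 shRNA-2, against 69.8%, at chr16:1771969-1772068 (0.00103).

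Opposite directions also occurred within 1 gene. MRPL37 stood at 61.3% with ALKBH5 shRNA-1, against 8.18% in scramble, at chr1:54200217-54200266 (authors' adjusted p 0.00395), and at 10.8%, against 37.2%, at chr1:54200467-54200516 (0.00276). MRPL48 had the lowest level with ALKBH5 shRNA-1, 2.34%, against 37.2% in scramble (0.00107). MRPL24 stood at 45.9% with ALKBH5 shRNA-1, against 9.44%, 509 bases into the span (0.00426), and MRPL3 at 33.2%, against 4.82%, 17 bases into the span (7.62e-04). MRPL51 stood at 45.4%, against 12.8%. The remaining peaks of the ALKBH5 shRNA-1 table were MRPL15, MRPL38, MRPS21, MRPL12 and MRPS9, lower with shRNA, and MRPS26, MRPS34 and another site in MRPL37, higher with shRNA. MRPL27 stood at 90.9% with RBM33 shRNA-1, against 73.2% (authors' adjusted p 0.0893), which misses 0.05, as do MRPS26, MRPS34, MRPS9 and the other MRPL37 site.

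Because RefSeq (GRCh38.p14) windows reach 2 ALKBH5 shRNA-1 peaks near a RefSeq start, 30 bases of each are shown, with GGAC, letters of the m6A consensus, in capitals.
MRPL24: gtggcgggggaggGGACgctgagggcccat
MRPL3: gagcatcggccggcgaccgttccggcggcc
The MRPL24 stretch (chr1:156741087-156741116, minus strand) lies in a peak with an effect of 2.04 with ALKBH5 shRNA-1 (authors' p 1.07e-06), and holds GGAC. Of its 30 bases, 28 lie before the RefSeq start, GGAC among them. The MRPL3 stretch (chr3:131502937-131502966, minus strand) lies in a peak with an effect of 1.03 (authors' p 0.00307), and does not hold it.

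Transcript change and m6A change were set side by side for the ALKBH5 comparison. The classes were made from the effect tables alone. The 27 MRP genes with only higher peaks had a median log2 RNA difference of 0.28 (9 rose, 0 fell). The 13 with only lower peaks had 0.29 (4 rose, 1 fell), the 15 with both had 0.23 (2 rose, 0 fell), and the 23 with no listed peak had 0.33 (11 rose, 1 fell). MRPL18, MRPS21 and MRPS9, which are in the class with only higher peaks, each have a peak that the tables of percentages list as lower with ALKBH5 shRNA-1. MRPS26, in the class with only lower peaks, has a peak listed there as higher with ALKBH5 shRNA-1 (87.3%, against 69.4% in scramble). Transcripts rose in all 4 classes, and a relation to the direction of the peaks was not tested. MRPS14 had no peak in an ALKBH5 table, MRPS23 had higher peaks of 0.90 and 0.61 with ALKBH5 shRNA-1 and shRNA-2, and MRPL20 and MRPL36 had lower peaks of -0.53 and -1.25 with ALKBH5 shRNA-2. MRPL23 had a lower peak of -0.86 with ALKBH5 shRNA-1, while MRPL9 had 3 higher peaks in each ALKBH5 table, with effects between 0.65 and 1.44. Among the 6 genes with the largest rise, peaks were therefore absent in 1, higher in 2 and lower in 3.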

How the data were processed

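RNA levels came from total RNA of UM-SCC-1 cells, made into libraries with a stranded kit per the labels' protocols. The submitters' processing notes name cutadapt 1.18, HISAT2 2.1.0, featureCounts of Subread 1.6.4, edgeR 3.24.3 and hg38, without their order. The authors deposited CPM values (a normalised signal) for 21797 genes. Values were divided by the worth of 1 read, 0.143 to 0.22 CPM by library. Among the lower values, from which that worth was set, 100.0% gave whole reads within 0.1 read. Higher values were rounded to whole reads without this check. In CPM, 3 reads equal 0.43 to 0.66. Of 36 samples in the labels, 18 are RNA-seq; 15 were used and 3 were not analysed here. The number of other sample columns was 0. The authors also deposited edgeR tables (log2 fold changes, p-values and score statistics), m6A peaks with a natural log effect and p-value, and m6A levels as a fraction per group, shown as percent. The m6A peaks came from a caller not given in the sources used here, and a set of DESeq2 tables by the authors was not used.

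limma 3.58.1 (R 4.3.3) was fitted to log2(CPM + 1) of the 18227 genes averaging 1 CPM or more, with 6 group means, 9 residual degrees of freedom, a mean-variance trend and Benjamini-Hochberg adjustment over all genes tested (threshold 0.05). Fold changes on this scale understate changes of low genes. shRNA values average both constructs equally. Alternatives were edgeR 4.0.16 and DESeq2 1.42.0 on recovered reads, other scalings, filters and pseudocounts, a replicate block, removal of a length trend, and leaving out each library. The limma and edgeR fits were tested on simulated data, for ALKBH5 shRNA minus ALKBH5 scramble only. DESeq2, the replicate block, trend removal and the interaction were not tested in this way. Replicates differed by more than sampling noise (chi-square per degree of freedom 3.03 to 9.09), so none were merged. Tables and figures used Python 3.11.15, pandas 2.3.3, numpy 2.4.6 and matplotlib 3.10.9.

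The members and lists were chosen with earlier results of these data known. Values per library are given for up to 6 genes with the largest called rise or fall in each set and up to 6 with the largest called interaction. Every gene with a listed m6A peak was to be described, which was narrowed after the data were seen to the genes with an m6A level and a few others chosen after their values were seen.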

Additional observations from a re-analysis of the deposited data

Results flagged for a closer look

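The genes below had an ALKBH5 effect (shRNA minus scramble) that differed from the RBM33 effect by the limma interaction test, adjusted p under 0.05 over all genes. No cause was tested. The difference of the effects, on the log2 scale, was 1.053 for MRPL20, 0.80 for MRPL36, 0.77 for MRPL58, 0.76 for MRPL14, 0.73 for MRPS23, 0.63 for MRPL9, 0.61 for MRPL12, 0.60 for MRPL52, 0.54 for MRPS34, 0.53 for MRPL21, 0.52 for MRPL37 and 0.45 for MRPL40. MRPS34 is the one of these that was also called in the RBM33 set on its own, where it was lower with shRNA. The interaction also carries the difference between the scramble groups. MRPL20, MRPL36, MRPL58, MRPL14, MRPS23, MRPL9, MRPL12, MRPL37 and MRPL40 were also called lower in ALKBH5 scramble than in RBM33 scramble. Between ALKBH5 shRNA and RBM33 shRNA libraries, MRPL20 alone was called.

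Among other genes of mitochondrial gene expression, the difference of the effects was 0.81 for MALSU1, 0.78 for SLIRP, 0.62 for GADD45GIP1 and 0.60 for TUFM. It was negative for 3 mRNAs encoded in mitochondrial DNA, with -0.83 for MT-ATP8, -0.58 for MT-ND4 and -0.54 for MT-ND5.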

How the results depend on the processing

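With ALKBH5 shRNA, 23 to 28 MRP genes were higher under the 11 other settings and 19 to 30 with 1 library left out. The lower count of 2 was 1 without a filter, with the replicate block, with the length trend removed, with both, and with the groups of one set alone (0 to 2 with 1 library left out). For RBM33, the higher count of 4 was 0 without a filter and 0 with the replicate block (0 to 5 with 1 library left out, and 1 to 5 lower). The interaction count of 12 was 6 with the length trend removed and 4 with block and trend removal (6 to 14, and 0 lower). The scramble count of 10 lower was 3 after rescaling and 6 with block and trend removal (4 to 12, and 0 higher). MRPL20 in ALKBH5 shRNA minus RBM33 shRNA was not called (0) with the block, with or without trend removal (0 to 1, and 0 lower). Singly, ALKBH5 shRNA-1 gave 5 to 21 with 1 library left out. ALKBH5 shRNA-2 gave 14 with block and trend removal (7 to 27), RBM33 shRNA-1 gave 1 after rescaling and 1 with the block (1 to 3), and RBM33 shRNA-2 gave 3 with trend removal, with or without the block (2 to 6). Where an shRNA keeps 1 library, it is assumed to vary like the other groups. No result reversed, and the cause of these shifts was not tested. Of 31 pairs of libraries with the same replicate number, 0 correlated above 0.1 (median -0.007). Deviations within groups of 2 or 3 libraries depend on each other, so this check cannot exclude pairing by number. The block left 25 higher with ALKBH5 shRNA, 9 in the interaction and 9 lower between scrambles. Over all settings, values of single named genes kept their call or lack of it in 505 cases, lost it in 85 and gained it in 2, both RBM33 itself. Depth limits small differences: 3 reads equal up to 0.66 CPM, and the m6A values have no replicate spread or depth.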
